A study of Mus musculus with 6 samples.

Results

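The genes examined were 6 known from the oocyte, the early embryo or pluripotent cells, namely Dppa2, Dppa4, Dppa3, Dppa5a, Ooep and Khdc3. They were taken by name from the gene symbols of both deposited tables of estimated counts, and all 6 were listed in both, out of 16279 genes listed in at least 1 table. The tables come from polyA RNA-seq of male mouse cells of the cross labelled C57BL/6 x CAST/EiJ, an F1 hybrid for which the study names a C57BL/6J mother and a CAST/EiJ father. The 3 libraries S01 to S03 came from embryonic stem cells (mESCs) kept without feeders in 2i medium with LIF, as clones grown from single cells of blastocyst-derived lines. The 3 libraries S04 to S06 came from cultures labelled cardiac precursor cells (CPCCs), which the study made from those clones through hanging-drop embryoid bodies treated with ascorbic acid, followed by expansion with EGF and Fgf2. The study describes these cultures as mixed and only enriched in cardiac stem and progenitor cells. The column names do not say which CPCC library came from which mESC clone.

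Dppa2 and Dppa4 encode partner chromatin proteins with a SAP DNA-binding domain, active in pluripotent cells and in the early embryo. Dppa3, also called Stella, is a maternal factor that restrains Uhrf1, and it also shields the genome of the early embryo from changes in DNA methylation. Ooep and Khdc3, also called Floped and Filia, belong to the subcortical maternal complex of the oocyte together with Nlrp5 and Tle6, and Dppa5a, also called Esg1, is an RNA-binding KH-domain protein related to Ooep and Khdc3.

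The 6 genes lay on 3 chromosomes of GRCm38, and 2 pairs were neighbours. Dppa4 (chr16:48283735-48294293) and Dppa2 (chr16:48310274-48319514) were both on the plus strand with 16.0 kb between them, each with 7 exons. Dppa5a (chr9:78367054-78368200) and Ooep (chr9:78376903-78378589) were both on the minus strand with 8.7 kb between them, each with 3 exons. Khdc3 (chr9:73102398-73104444, plus strand, 4 exons) was on the same chromosome but 5262.6 kb from Dppa5a. Dppa3 (chr6:122626424-122630272, plus strand, 4 exons) stood apart from the others. Their proteins run from 118 codons for Dppa5a, over 150 for Dppa3, 164 for Ooep, 296 for Dppa4 and 301 for Dppa2, to 346 for Khdc3.

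Promoter sequences from RefSeq (GRCm38.p6), 250 bases before to 50 after the start, were matched for 2 of the 6 genes, Khdc3 and Ooep. They are shown because no promoter was matched for the other genes, and the 2 windows differed in composition. Capitals mark the CG dinucleotides, the bases that DNA methylation acts on. The Khdc3 window is chr9:73102148-73102447 on the plus strand and the Ooep window is chr9:78378539-78378838 on the minus strand.
Khdc3: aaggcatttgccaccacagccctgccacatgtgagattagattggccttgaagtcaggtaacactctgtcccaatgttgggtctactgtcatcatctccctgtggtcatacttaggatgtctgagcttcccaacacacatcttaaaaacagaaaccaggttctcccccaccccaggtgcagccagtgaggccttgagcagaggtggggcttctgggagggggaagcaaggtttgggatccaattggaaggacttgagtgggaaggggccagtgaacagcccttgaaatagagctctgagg
Ooep: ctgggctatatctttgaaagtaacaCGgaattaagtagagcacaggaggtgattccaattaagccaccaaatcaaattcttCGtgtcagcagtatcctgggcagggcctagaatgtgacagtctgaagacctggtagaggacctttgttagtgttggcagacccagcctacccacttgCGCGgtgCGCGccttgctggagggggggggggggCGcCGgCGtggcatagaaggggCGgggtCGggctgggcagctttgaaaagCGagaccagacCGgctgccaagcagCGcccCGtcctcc
The Ooep window held 15 CG dinucleotides, and 65.4% of the 32851 promoters in the RefSeq table held fewer. The Khdc3 window held 0, against a median of 7, and 5.4% of promoters held as few.

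Short motifs were searched on both strands of these windows, with positions given for the first base relative to the start. The GC box GGGCGG was found once in Ooep, at -19, and in 35.7% of all promoters. CCAAT was found 4 times in Khdc3, at -180 and -12 on the gene's strand and at -210 and -9 on the other strand, where the pair nearest the start overlapped. Ooep held CCAAT once, at -196, and 37.4% of all promoters held it. The E-box CAGGTG was found in Khdc3 only, at -78, and in 20.2% of promoters. Neither window held TATAAA (in 13.6% of promoters), AGGTCA (in 16.3%), CACGTG (in 7.2%), GGTGTGG (in 7.6%) or ATGCAAAT (in 1.7%).

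The mESC libraries held 6442639 to 6907330 estimated counts and the CPCC libraries 8468819 to 11436062. Levels are given as CPM, a gene's counts per 1000000 counts of the library, scaled by the trimmed mean of M values (TMM) over the 13001 genes listed in both tables. The labels were checked against markers. All 16 pluripotency regulators were lower in CPCCs. Of 7 cardiac markers 3 were tested and 1, Tnnt2 (cardiac troponin T), rose from 1.58 ± 0.655 to 51.6 ± 44.2 CPM (SD, n = 3), with 103 CPM in S04 against 24.0 in S05 and 28.3 in S06. Mef2c, at 19.3, 9.94 and 12.8 CPM in S04, S05 and S06, and Hand2, at 6.76, 1.09 and 1.95 CPM, were listed for CPCCs only. Nkx2-5 was also listed for CPCCs only, at 1.59, 0 and 0.917 CPM, and Tbx5 for mESCs only. Gata4 and Isl1 were tested and not called, with log2 fold changes of 1.26 (SE 0.68) and 1.47 (SE 0.76).

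All 6 genes were lower in CPCCs than in mESCs, from 14.2-fold for Dppa2 to 63.1-fold for Ooep by the fitted fold change, and each passed the threshold of an adjusted p of 0.05 (edgeR quasi-likelihood test, Benjamini-Hochberg adjustment over 12471 genes). The background was high: 29.7% of the genes tested were called lower and 31.7% higher, and DESeq2 called 29.6% lower. For each of the 6, every CPCC library lay below every mESC library, which held for 34.5% of the genes tested. Their median log2 fold change was -4.84, against 0.03 over all genes tested, and 1.56% of genes fell as far as Dppa2, the member that fell least. In bulk RNA, fewer cells carrying a transcript and less transcript per cell cannot be told apart.

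**Figure D1:**
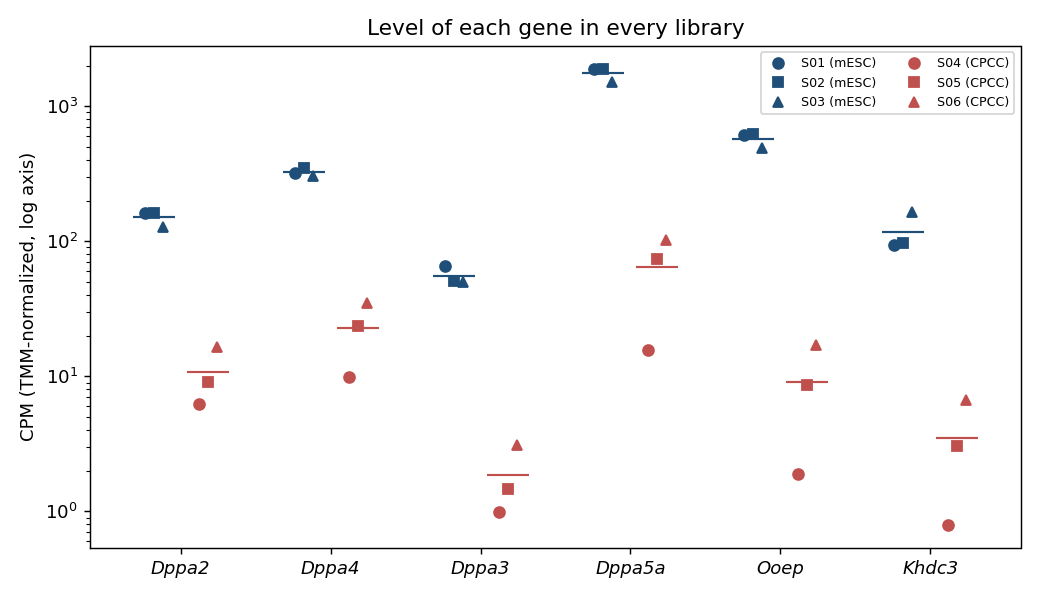
Level of each gene, in CPM on a log axis, in the 3 mESC libraries (blue) and the 3 CPCC libraries (red), with a line at each group's mean. Every red point lies below every blue point of the same gene, and S04 is the lowest red point and S06 the highest for all 6.

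Dppa2, the first of the chromatin pair, was at 162, 163 and 128 CPM in mESC libraries S01, S02 and S03. In CPCC libraries S04, S05 and S06 it was at 6.26, 9.09 and 16.6 CPM. The groups did not overlap, and the lowest mESC library stood 7.67 times above the highest CPCC library. The log2 fold change was -3.82 (SE 0.34, adjusted p = 2.54e-05, edgeR quasi-likelihood test with Benjamini-Hochberg adjustment).

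Dppa4, its partner, was at 319, 352 and 303 CPM in S01 to S03. It was at 9.84, 23.5 and 35.1 CPM in S04 to S06. The mESC libraries were the tightest of any of the 6 genes, with a coefficient of variation of 7.78%, while the CPCC libraries spread with one of 55.4% and stayed below all mESC libraries. Its log2 fold change of -3.83 (SE 0.40, edgeR adjusted p = 5.84e-05, Benjamini-Hochberg) stood 194th in size of fall among all genes tested, next to Dppa2 at 195.

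Dppa3, the guard of early methylation, was at 65.5, 51.2 and 49.6 CPM in mESCs. It was at 0.994, 1.46 and 3.09 CPM in S04 to S06, from 10, 12 and 27 counts. The groups were well apart, with a factor of 16.0 between the nearest libraries, but the CPCC values rest on few reads. The log2 fold change was -4.91 (SE 0.39, edgeR adjusted p = 1.34e-05, Benjamini-Hochberg).

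Dppa5a, an RNA-binding protein of the KH family, was at 1894.1, 1896.7 and 1500.8 CPM in mESCs. In CPCCs it was at 15.7, 74.2 and 103 CPM. S04 stood well below S05 and S06, and the lowest mESC library was 14.6 times above the highest CPCC library. The log2 fold change was -4.78 (SE 0.59, edgeR adjusted p = 0.000147, Benjamini-Hochberg).

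Ooep, a core protein of the maternal complex, was at 608, 621 and 493 CPM in mESCs. It was at 1.89, 8.61 and 17.0 CPM in CPCCs, from 19, 71 and 148 counts. This was the largest separation of the 6, with the lowest mESC library 29.1 times above the highest CPCC library. Its log2 fold change was -5.98 (SE 0.63, edgeR adjusted p = 5.99e-05, Benjamini-Hochberg), the 32nd largest fall of all genes tested, and without library S06 it was -6.80.

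Khdc3, which joins Ooep in that complex and is also studied in stem cells for genome stability, was at 94.7, 96.6 and 164 CPM in mESCs. It was at 0.795, 3.03 and 6.65 CPM in CPCCs, from 8, 25 and 58 counts. Library S03 was the highest for Khdc3, whereas it was the lowest mESC library for the other 5 genes, and the groups did not overlap. Its log2 fold change was -5.10 (SE 0.58, edgeR adjusted p = 9.48e-05, Benjamini-Hochberg), and without library S06 it was -5.98. Khdc3 and Dppa3 each exceeded the filter's level of 1.33 CPM in 2 of 3 CPCC libraries, and passed it through their mESC level. The gene model Gm20509 shares 790 exon bases with Khdc3 on the same strand and was listed in neither table, so reads of the shared part cannot be divided between them.

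**Figure D2:**
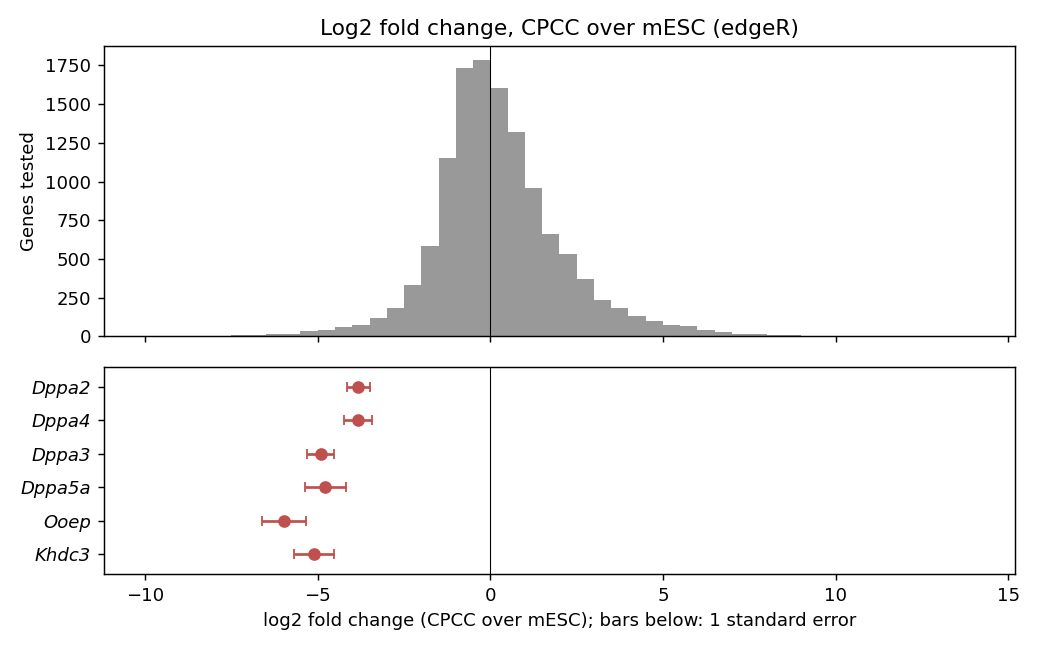
Upper panel, number of genes tested by log2 fold change of CPCC over mESC in bins of 0.5, and lower panel, the 6 genes with bars of 1 standard error. The 6 lie between -5.98 and -3.82, in the left tail of a distribution whose median is 0.03.

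Levels can be set against each other once divided by the exon bases inside each gene's listed interval. On this scale of CPM per kb, the mESC order was Dppa5a at 2858.7 ± 369, Ooep at 475 ± 58.1, Dppa4 at 219 ± 17.1, Khdc3 at 96.4 ± 32.1, Dppa2 at 86.6 ± 11.5 and Dppa3 at 67.7 ± 10.7 (SD, n = 3). The first 3 did not overlap with their neighbours, whereas the libraries of Khdc3, Dppa2 and Dppa3 overlapped. In CPCCs the order was Dppa5a at 104 ± 71.9, Dppa4 at 15.4 ± 8.54, Ooep at 7.58 ± 6.25, Dppa2 at 6.13 ± 3.08, Khdc3 at 2.84 ± 2.40 and Dppa3 at 2.26 ± 1.35 CPM per kb. Every pair of neighbours after Dppa5a overlapped, and Ooep had gone from above Dppa4 to below it in each library.

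The level of Dppa5a has to be read with a copy. Gm6083, a processed pseudogene (chr5:29537949-29538625, plus strand) 96.919% identical to the Dppa5a transcript over 357 bases, was listed at 11188.2, 11939.7 and 9726.3 estimated counts in mESCs and 116.4, 450.8 and 641.4 in CPCCs. Dppa5a itself had 12261.0, 12894.2 and 10261.2 estimated counts in mESCs. The counting thus placed nearly as many reads on the copy as on the gene, so the split between them is uncertain. Counted together, they gave a log2 fold change of -4.94 (SE 0.60, edgeR adjusted p = 0.000128, Benjamini-Hochberg). The ratio of Dppa5a to Gm6083 was 1.05 to 1.10 in mESCs and 1.35 to 1.40 in CPCCs. Of the other 8 near copies of Dppa5a only Pigp, through a stretch of 417 bases, was listed in the tables. Pigp had 1642.0, 1727.1 and 1353.3 estimated counts in mESCs and 210.2, 194.7 and 229.6 in CPCCs. In S04 this was above the 157.6 of Dppa5a, and Pigp was not part of the joint count. No near copy of Ooep was found, and those of Dppa2, Dppa4 and Dppa3 were listed in neither table.

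The retained share is the CPM of a CPCC library as a percent of the mESC mean, here with a 95% exact Poisson interval that covers counting error of the CPCC library only. Dppa2 kept 4.16% (3.19 to 5.32) in S04, 6.04% (4.75 to 7.57) in S05 and 11.0% (9.31 to 13.0) in S06. Dppa4 kept 3.03% (2.46 to 3.69), 7.25% (6.26 to 8.34) and 10.8% (9.63 to 12.1). The chromatin pair thus kept the largest shares in each of the 3 libraries, and their intervals overlapped within each library.

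Ooep kept the smallest shares, 0.329% (0.198 to 0.514), 1.50% (1.17 to 1.89) and 2.96% (2.50 to 3.47) in S04, S05 and S06. Khdc3 kept 0.671% (0.290 to 1.32), 2.56% (1.66 to 3.78) and 5.61% (4.26 to 7.26). The interval of Khdc3 overlapped that of Ooep in S04 and S05 and lay above it in S06.

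Dppa3 kept 1.79% (0.860 to 3.30), 2.63% (1.36 to 4.59) and 5.58% (3.68 to 8.12). Dppa5a kept 0.888% (0.757 to 1.04), 4.21% (3.88 to 4.55) and 5.82% (5.45 to 6.22), or 0.801%, 3.79% and 5.18% when counted with Gm6083. Both lay between the chromatin pair and Ooep. The highest share of the 6 exceeded the lowest 12.6 times in S04, 4.83 times in S05 and 3.72 times in S06, so the genes differed most where least was kept.

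**Figure D3:**
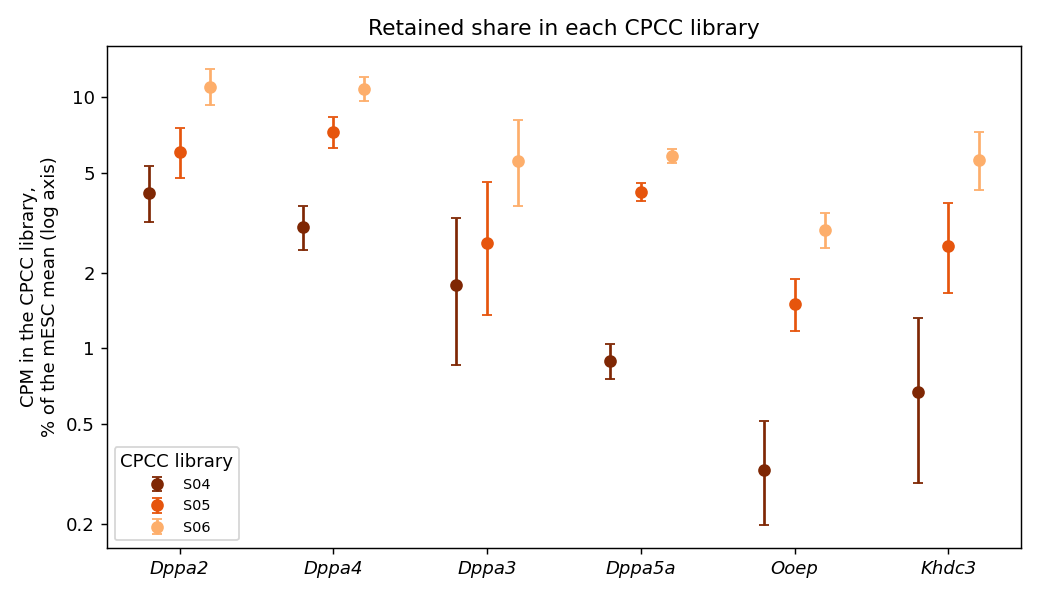
Retained share of each gene in the 3 CPCC libraries, in percent of the mESC mean on a log axis, with 95% exact Poisson intervals of the CPCC count. Dppa2 and Dppa4 lie highest and Ooep lowest in each library, and each gene is lowest in S04 and highest in S06.

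All 6 genes were lowest in S04 and highest in S06 among the CPCC libraries. The same order was found in 24.9% of genes tested, 41.2% of those called lower and 13 of 16 pluripotency regulators. The level in S06 over that in S04 was 2.65-fold for Dppa2, 3.11-fold for Dppa3, 3.56-fold for Dppa4, 6.55-fold for Dppa5a, 8.36-fold for Khdc3 and 8.98-fold for Ooep. The median retained share of the 16 pluripotency regulators was also lowest in S04, at 2.19%, against 5.35% in S05 and 5.71% in S06, whereas Tnnt2 was highest in S04. The part of remaining pluripotent cells in these values was not tested.

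Ratios of 2 genes within a library do not depend on library scaling, and all 15 pairs were compared. With 3 libraries against 3, an exact two-sided permutation test cannot give a p below 0.10. In 11 of 15 pairs the groups did not overlap (p = 0.10, Benjamini-Hochberg adjusted 0.136, exact permutation test), so none passed the threshold.

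Dppa2 over Dppa4 gave log2 ratios of -0.98, -1.11 and -1.25 in mESCs and -0.65, -1.37 and -1.08 in CPCCs. These overlapped, with a difference of 0.08 (exact permutation p = 0.80, adjusted 0.857) and SDs of 0.13 and 0.36, so the neighbouring partners were not seen to shift against each other beyond the spread. The neighbours Dppa5a and Ooep did separate. Dppa5a over Ooep was 1.64, 1.61 and 1.61 in mESCs and 3.05, 3.11 and 2.60 in CPCCs, a difference of 1.30 (exact permutation p = 0.10, adjusted 0.136).

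Ooep over Khdc3, the pair from the maternal complex, was 2.68, 2.68 and 1.59 in mESCs and 1.25, 1.51 and 1.35 in CPCCs. The groups did not overlap, but the gap was narrow because S03, where Khdc3 was high, lay close to the CPCC libraries. The largest differences were between the chromatin pair and Ooep. Dppa2 over Ooep went from -1.91, -1.93 and -1.95 to 1.73, 0.08 and -0.03, a difference of 2.52, and Dppa4 over Ooep differed by 2.44. The 3 other pairs that overlapped were Dppa3 with Dppa5a, Dppa3 with Khdc3 and Dppa5a with Khdc3, with differences of 0.09, 0.44 and 0.35.

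**Figure D4:**
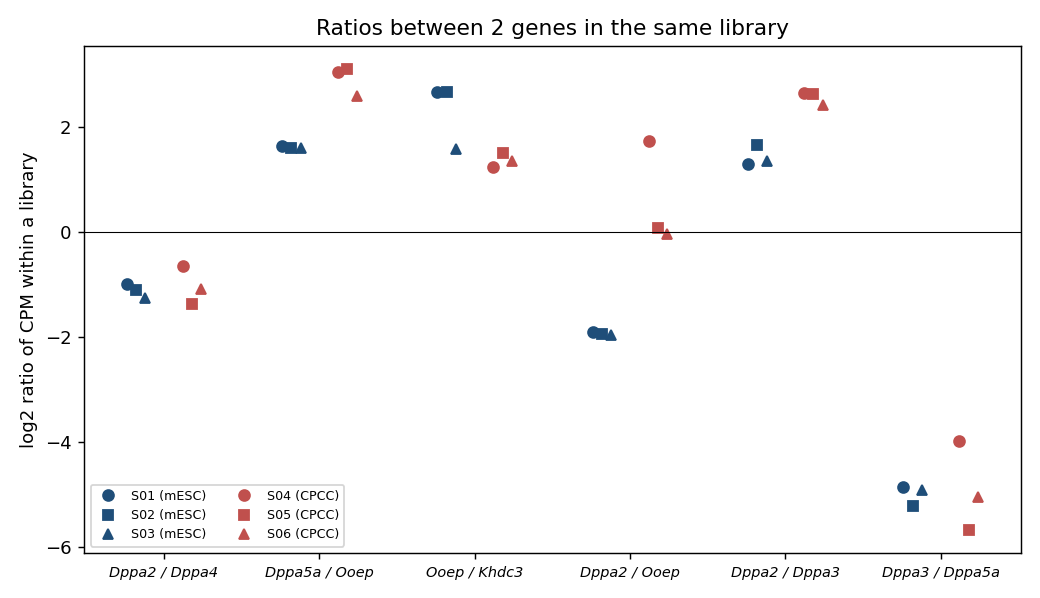
Log2 ratio of the CPM of 2 genes in the same library, for 6 of the 15 pairs, in mESCs (blue) and CPCCs (red). Dppa2 / Dppa4 overlaps between the groups, while Dppa2 / Ooep moves from -1.95 to -1.91 in mESCs up to -0.03 to 1.73 in CPCCs.

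The other genes of the maternal complex were listed only in part. A gene missing from a table had too few counts or stood there under another symbol, which was not checked. Of 15 genes on a list of subcortical maternal complex (SCMC) and oocyte maternal factors, 8 were listed in a table and 5 were tested, of which 4 were lower, Ooep and Khdc3 among them, and 1 was higher. Nlrp5, the complex's scaffold, and Nlrp2 were listed in neither table. Tle6, a further member of the complex, was at 15.4, 15.6 and 17.1 CPM in mESCs and 0.497, 1.94 and 5.27 in CPCCs.

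Tle6 thus showed the order of CPCC libraries seen for Ooep and Khdc3, an order found in 41.2% of the genes called lower. Tle6 fell (log2 fold change -2.65, SE 0.64, edgeR adjusted p = 0.00597, Benjamini-Hochberg). Nlrp4f, an NLR family protein of the oocyte, fell further (-6.64, SE 0.46, edgeR adjusted p = 6.3e-06, Benjamini-Hochberg), from 93.7 ± 13.5 to 0.924 ± 0.820 CPM (SD, n = 3). Zbed3, also reported in the complex, rose from 10.6 ± 3.14 to 61.7 ± 14.8 CPM (SD, n = 3; log2 fold change 2.54, SE 0.29). Padi6, which forms the oocyte's cytoplasmic lattices, was listed for mESCs only, at 4.17, 5.59 and 2.63 CPM. Its mESC mean was 12.3-fold above the level of 3 counts, averaged over the CPCC libraries.

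Few oocyte markers were listed. Of 9 such markers 6, Zp1, Zp2, Figla, Nobox, Oosp1 and H1foo, were listed in neither table and 0 passed the filter. Zp3, a coat protein of the egg, was at 6.64, 7.65 and 8.63 CPM in mESCs and was not listed for CPCCs. Its mESC mean was 22.8-fold above the level of 3 counts, averaged over the CPCC libraries. Gdf9 and Bmp15 were at or under 2.01 CPM.

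Germ cell markers were lower in CPCCs in 7 of 7 cases, with a median log2 fold change of -2.83. Dazl, an RNA-binding protein of germ cells, was at 219, 214 and 330.5 CPM in mESCs and at 1.59, 3.76 and 5.39 in CPCCs (-6.16, SE 0.42, edgeR adjusted p = 5.79e-06, Benjamini-Hochberg). As for Khdc3, it was highest in S03 and lowest in S04. Tfap2c, a transcription factor of germ cell precursors, fell by 4.08 on the log2 scale. The log2 fold changes of the other 5 were smaller, at -2.96 for Sycp3 (a meiotic chromosome protein), -2.83 for Prdm1, -2.31 for Dnd1, -2.26 for Nanos3 and -1.57 for Ddx4 (a germ cell helicase).

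Dppa2 and Dppa4 are known as activators of genes of the 2-cell stage, so these were counted. Of 22 on the list, 11 were listed in a table and 5 were tested. By edgeR 0 were called in either direction, with 0 at an unadjusted p under 0.05, and by DESeq2 0 were called. The standard errors of the 5 ran from 0.68 to 1.02 on the log2 scale, so a moderate change could not have been called. Tcstv1 had a negative log2 fold change (-1.32, SE 0.90), and those of the other genes tested were 0.27 to 0.79. Zscan4c was at 3.09, 1.77 and 4.39 CPM in mESCs and 0.994, 2.67 and 7.56 in CPCCs, and Zscan4f was at 1.85, 2.65 and 1.61 and at 0.696, 1.70 and 8.25. The groups overlapped, with S06 highest of all 6 libraries for both, and reads of these near-identical genes may be divided between copies.

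Among 9 genes for the upkeep and removal of DNA methylation, the field in which Dppa3 acts, 5 were lower, 2 higher and 2 not called. Uhrf1, which Dppa3 restrains, was at 332, 376 and 382 CPM in mESCs and 34.8, 70.0 and 89.0 in CPCCs, a log2 fold change of -2.49 (SE 0.31, edgeR adjusted p = 0.000155, Benjamini-Hochberg). Its partner Dnmt1, the maintenance methyltransferase, fell by 1.63 on the log2 scale. Among the CPCC libraries Uhrf1 and Dnmt1 had the same order as Dppa3, an order found in 41.2% of the genes called lower. Uhrf1 and Dnmt1 kept far more than Dppa3, 9.58% and 20.9% in S04.

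The demethylation enzymes Tet1 and Tet2 fell by 2.62 and 1.93 on the log2 scale, while Tet3, a maternal enzyme in the zygote, rose from 11.0 ± 5.62 to 77.6 ± 9.62 CPM (SD, n = 3). Of the methyltransferases that lay down new marks, Dnmt3a rose by 1.28 and Dnmt3b fell by 1.45 on the log2 scale. Dnmt3l, their cofactor, was at 49.9, 39.7 and 31.9 CPM in mESCs and 6.46, 27.6 and 45.0 in CPCCs, which overlapped.

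The pluripotency regulators gave the scale against which the 6 genes fell. All 16 were called lower, with a median log2 fold change of -4.43, and the retained share in S04 ran from 0% for Prdm14, at 0 counts, to 18.7% for Klf4. Pou5f1 (Oct4), the core factor of pluripotency, was at 146, 131 and 81.6 CPM in mESCs and 3.08, 13.3 and 25.4 in CPCCs. It thus kept 2.58%, 11.1% and 21.3%, more than any of the 6 genes in S05 and S06. The largest falls were those of Tfcp2l1 (-7.35), Prdm14 (-6.63) and Fbxo15 (-6.00), and the smallest those of Utf1 (-1.55), Sox2 (-2.34) and Klf4 (-2.94), all log2 fold changes.

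**Figure D5:**
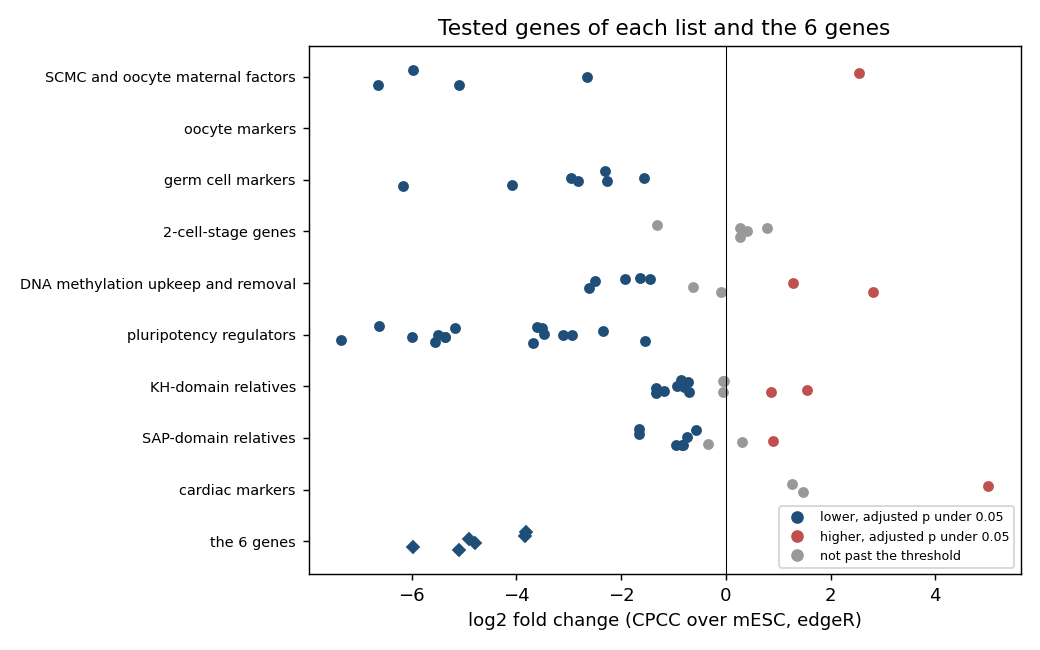
Log2 fold change of CPCC over mESC for the tested genes of each list (circles) and the 6 genes (diamonds), in blue where lower, red where higher and grey where not past the threshold. The 6 genes, at -5.98 to -3.82, lie within the range of the pluripotency regulators and left of all KH- and SAP-domain relatives.

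The surroundings of the 6 genes were examined in the listed positions, with distances taken between the lower coordinates of genes on either strand. Within 100 kb on this measure, 13 other genes were listed, of which 9 were tested, 5 lower, 1 higher and 3 not called. Dppa3 lies beside Gdf3 and Nanog, both active in pluripotent cells, whose lower coordinates were 21.0 kb before and 81.1 kb after its own. Gdf3 is on the minus strand, so its lower coordinate is not its transcription start. Gdf3 was at 428, 446 and 352 CPM in mESCs and 7.95, 18.8 and 43.3 in CPCCs (log2 fold change -4.13, SE 0.53), and Nanog fell by 5.17 on the log2 scale.

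Apobec1, a cytidine deaminase gene on the minus strand with its lower coordinate 48.6 kb before that of Dppa3, was instead higher (1.29, SE 0.29, edgeR adjusted p = 0.00433, Benjamini-Hochberg). Around Dppa5a and Ooep, Mb21d1 (the DNA sensor cGAS) fell by 1.65 and Mto1, a mitochondrial tRNA modifier, by 1.09 on the log2 scale, both less than the pair. Ddx43, an RNA helicase gene next to Ooep, was listed for mESCs only, at 5.87, 8.24 and 6.00 CPM. Its mESC mean was 20.0-fold above the level of 3 counts, averaged over the CPCC libraries. Of the neighbours of Khdc3 only Rsl24d1, a ribosome assembly factor, was called (-0.73), and Pigb, 2310009A05Rik and Rab27a were not. No other gene listed was within this window of Dppa2 and Dppa4.

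For each of the 6, the 3 tested genes with the most similar profile were found by the Euclidean distance of gene-centred log2 CPM over the 6 libraries. Nearest to Dppa2 were Galnt6 (distance 0.22), Trap1a (0.36) and Sall4 (0.40), and nearest to Dppa4 were Sh3gl2 (0.31), Echdc2 (0.34) and Nefh (0.45). The partners stood 10th and 9th in each other's order, at a distance of 0.56. Nearest to Dppa3 were Naa11 (0.37), Pnma5 (0.55) and Ankrd35 (0.57).

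Dppa5a was closest to Slc28a1 (0.31), Gstm3 (0.37) and its copy Gm6083 (0.43), which shares its reads. Ooep was closest to Fbxo15 (0.46), Tcl1 (0.67) and Krt42 (0.88), and was 1.60 from Khdc3. Khdc3 was closest to Nanog (0.41), Zfp42 (0.70) and Elf3 (0.82). Nanog and Zfp42 share with Khdc3 the high library S03, at 1131.8 CPM for Nanog against 854 and 749.9, and at 406 CPM for Zfp42 against 267 and 239.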

How the data were processed

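The data are polyA RNA-seq libraries of 3 mESC and 3 CPCC samples. The authors deposited estimated counts per gene, 1 table per cell type, and 17.9 to 21.5% of values per library were not whole. The submitters' processing notes name STAR 2.7 and mm10. The counter and its use of strand are not given in the sources used here. Each table holds genes with at least 10 counts over its 3 libraries, so a gene missing from a table was not necessarily at 0.

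Counts were rounded, and the 13001 genes in both tables were normalized by TMM and filtered with filterByExpr, which left 12471. The quasi-likelihood test of edgeR 4.0.16 (R 4.3.3) compared CPCC with mESC, with Benjamini-Hochberg adjustment and a threshold of 0.05. The standard error is the fold change divided by the root of the F statistic. Groups came from the labels. The table columns carry no replicate numbers, and p-values measure the spread between these cultures, which came from a few lines. All 6 genes passed the filter. Transcripts for lengths and copies came from GENCODE vM21. Near copies were sought with BLAST 2.17.0, at 90% identity over at least 100 bases and 20% of a transcript. Intervals cover counting error only, since reads carried no molecular identifiers.

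The fit was tested on simulated data. Alternatives were DESeq2 1.42.0, library totals, other filters, genes of either table and each library left out. Dppa5a with Gm6083 counted together was chosen after seeing the data. The members, lists and tests were chosen with earlier results of these data known. Named from each list were all genes listed, up to 6, or otherwise the 3 lowest and 3 highest called, from flanks the called genes, and the 3 nearest profiles. Pou5f1, the cardiac markers not called, Dnmt1, Prdm1, Padi6, genes listed in neither table and Dnmt3l were named outside this rule. So were Zscan4c, Zscan4f, Tcstv1 and the uncalled neighbours. Each was named for its role or after its values were seen.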

Additional observations from a re-analysis of the deposited data

How the results depend on the processing

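All 72 values of the 6 genes obtained under 13 other settings kept their direction and passed the threshold, with adjusted p of at most 0.00125 (edgeR or DESeq2, Benjamini-Hochberg). DESeq2 called 29.6% of 13000 genes lower. Khdc3 had no value where at least 10 counts were required in every sample. Leaving out 1 library in turn gave log2 fold changes from -4.29 to -3.53 for Dppa2, -4.28 to -3.45 for Dppa4, -5.49 to -4.57 for Dppa3, -5.30 to -4.30 for Dppa5a, -6.80 to -5.47 for Ooep and -5.98 to -4.59 for Khdc3. The differences in log2 ratio ran from -0.11 to 0.25 for Dppa2 with Dppa4, -0.37 to 0.48 for Dppa3 with Dppa5a, -0.02 to 0.71 for Dppa3 with Khdc3 and -0.02 to 0.54 for Dppa5a with Khdc3, so their sign was not settled. With at least 10 counts in every sample, fewer genes were tested, and 1 SCMC gene and 3 germ cell markers were called lower and 0 cardiac markers higher. With genes of either table and missing genes at 0 or at 3 counts, 1 oocyte marker was called lower and 2 cardiac markers higher. No paired analysis was possible because the columns carry no replicate numbers. Depth limits Dppa3 and Khdc3 most, with 10 and 8 counts in S04, the lowest CPCC library of each.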

Other observations

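Relatives of the 6 genes by domain moved much less. Of 13 tested genes for KH-domain proteins, the family of Dppa5a, Ooep and Khdc3, 8 were lower, 2 higher and 3 not called, with a median log2 fold change of -0.73. The largest falls were those of Pcbp1 (-1.33), Fxr1 (-1.33) and Igf2bp1 (-1.18), all RNA-binding regulators of broad use, Igf2bp3 (-0.70) fell least among those called, and Pcbp4 (1.55) and Qk (0.86) rose. The closest relatives by family, Khdc1a and Khdc1c, were listed for mESCs only, at no more than 2.21 CPM. Of 10 tested genes for SAP-domain proteins, the domain of Dppa2 and Dppa4, 7 were lower, 1 higher and 2 not called, with a median of -0.77. Sarnp (-1.66), Pias2 (-1.65) and Safb (-0.96) fell furthest, Sltm (-0.74) and Hnrnpu (-0.56) fell least, and Pias1 (0.91) rose.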
